A study of Mus musculus with 36 samples.

Results

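The circadian clock genes examined here are the 10 core members Arntl, Clock, Npas2, Per1, Per2, Per3, Cry1, Cry2, Nr1d1 and Nr1d2, chosen by gene symbol among the 78298 gene identifiers of a mouse hippocampus RNA sequencing study. Arntl is named Bmal1 in newer annotations. All 10 were found once in the count table and all 10 passed the filter on low counts, beside 21172 genes tested in all. The 36 libraries fell into 6 groups of 6, each with 3 males and 3 females: wild-type (WT) mice, mice labelled Fmr1-/- (Fmr1 knockout, KO) and mice labelled Sko-/- (Shank3 KO), each given vehicle or cannabidiol (CBD). Fmr1 encodes the RNA-binding protein whose loss causes fragile X syndrome, Shank3 encodes a scaffold of excitatory synapses, and CBD is a non-intoxicating plant cannabinoid. Injections were subcutaneous and went on for 7 days, at 5 mg/kg CBD in males and 50 mg/kg in females, so sex and dose cannot be told apart among treated mice. The sources used here do not give strain, knockout allele, age, light cycle or the hour of tissue collection. Each library carries its own animal code, and p-values measure the spread between these animals. The codes of the WT libraries share their prefix with Fmr1 KO mice, except WT CBD replicate 1, and Shank3 KO codes have a prefix of their own. What a prefix stands for is not stated, so in the comparison of Shank3 KO with WT mice genotype and prefix cannot be told apart. After the prefix, some codes have a number and letter in common, and WT and Fmr1 KO mice have none of these in common. What that part stands for, and whether such animals are related, is not stated. In Fmr1 KO against WT mice it cannot be told apart from genotype.

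The clock is a feedback loop of transcription that runs in nearly every cell. The ARNTL protein pairs with CLOCK or NPAS2 and switches on the Per and Cry genes through E-box motifs, and the PER and CRY proteins in turn shut that pair off. A second loop links them, in which NR1D1 and NR1D2 (the REV-ERB receptors) repress Arntl at ROR elements, and the PAR bZIP factors DBP, TEF and HLF act at D-box motifs. In mouse tissues such as the liver, Arntl and Per messengers peak at opposed times of day. Per1 and Per2 are also induced by neuronal activity and, for Per1, by glucocorticoids.

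Promoter stretches are printed, as background on the loop, for the members in which a search found letters that match a clock motif. RefSeq windows (build GRCm38.p6, 250 bases before to 50 after the start) were found for 9 of the 10 members, 13 windows in all, and 6 members held at least 1 match. Capitals mark the matched letters, read on both strands, and positions count from the transcription start.
Per1, chr11:69098734-69098833, plus strand, E-box at -166: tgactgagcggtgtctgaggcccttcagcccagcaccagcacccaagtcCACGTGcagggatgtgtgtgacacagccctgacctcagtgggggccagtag
Cry1, chr10:85185085-85185164, minus strand, E-prime box at -79 and E-box at -60: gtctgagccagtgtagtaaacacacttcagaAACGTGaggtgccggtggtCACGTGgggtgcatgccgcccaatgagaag
Per3, chr4:151044796-151044895, minus strand, D-boxes at -205 and -158: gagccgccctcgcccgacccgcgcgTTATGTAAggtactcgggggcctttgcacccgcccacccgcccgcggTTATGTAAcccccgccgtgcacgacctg
Cry2, chr2:92434200-92434279, minus strand, E-prime box at -166: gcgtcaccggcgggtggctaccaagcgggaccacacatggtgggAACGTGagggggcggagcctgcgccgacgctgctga
Nr1d1, chr11:98775378-98775455, minus strand, E-prime box at -28: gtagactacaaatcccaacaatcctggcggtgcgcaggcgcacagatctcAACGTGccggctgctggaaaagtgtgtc
Arntl, chr7:113207530-113207559, plus strand, core of a ROR element at 31 after the start: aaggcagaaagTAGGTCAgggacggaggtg

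Of 32851 mouse windows of the same 300 bases, 7.15% held the E-box CACGTG, 4.68% the E-prime box CACGTT, 2.32% the D-box TTANGTAA, 1.79% the cAMP response element TGACGTCA and 6.45% the ROR core TAGGTCA or TGGGTCA. No cAMP response element lay in a member's window. The share of windows with any of these motifs was not counted, so the number of members with a match has no background beside it. A match is a description of these letters and not a measured binding site.

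Total counts ran from 11655697 to 33228089 per library, with a median of 26717940.5, and each member held at least 218 counts in every library. Levels are given as CPM, counts scaled to a common library size. As a check of the labels, the Fmr1 level of WT vehicle mice was 73.9 ± 4.86 CPM (SD, n = 6) against 41.1 ± 2.89 in vehicle mice lacking it, and the Shank3 level was 264.8 ± 19.5 CPM against 167.9 ± 8.75. Neuron markers summed to between 5507 and 9540 CPM in every library, the 10 dentate markers to between 389.8 and 1452 CPM and the 7 tested CA1 markers of 8 to between 250.7 and 941.2 CPM. The dentate marker Prox1 (25.4 to 281 CPM) and the CA1 marker Wfs1 (39.7 to 138 CPM) were above 0 in every library. Other markers of these lists fell lower, such as Dsp (0.27 to 86.5 CPM) for dentate and Pou3f1 (1.75 to 46.4 CPM) for CA1. Fmr1 KO CBD replicate 3 stood apart, with a mean log2 CPM of dentate markers of 3.08, against 4.50 to 6.30 in the other libraries. Markers of neighbouring tissue varied widely. The choroid plexus gene Ttr ran from 2.07 to 2490 CPM and the striatal receptor gene Drd1 from 1.32 to 58.4 CPM. The share of counts in genes of at least 100000 bases, called the long-gene share below, had a median of 49.1% and ran from 37.1% in WT CBD replicate 1 to 53.2%, and 4 libraries lay under 42%: WT CBD replicate 1, Fmr1 KO CBD replicate 5, and WT vehicle replicates 4 and 6.

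The deposited length of each of the 10 members equalled the span from first to last base of the gene in an older annotation, 2.41 times (Nr1d1) to 35.4 times (Npas2) the length of its joined exons. Which of these bases reads were counted over was not measured here, so spliced messenger and unspliced transcript cannot be told apart in these levels. In tissue, fewer cells of a type and less RNA per cell cannot be told apart. Per unit of that length the order of mean levels was Nr1d1 (8.09 CPM per kb), Per1 (5.15), Nr1d2 (2.96), Clock (1.75), Per3 (1.57), Per2 (1.31), Cry2 (1.28), Arntl (0.585), Npas2 (0.475) and Cry1 (0.280). Neighbours such as Per2 and Cry2 lie closer than the spread between libraries.

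Some of these spans overlap other genes, and neither the strand setting of the counting nor the handling of shared bases is stated. Per3 lies wholly inside the span of Camta1 on the same strand in that annotation. Camta1, a calcium-responsive transcription factor gene, stood at 475 to 689 CPM, and its log2 CPM correlated with that of Per3 (r = 0.61 over 36 libraries, group and sex means removed, no test made). Whether reads of Camta1 introns entered the Per3 counts was not tested. Nr1d1 shares 14.5% of its span with Thra on the opposite strand (r = 0.34). Cry2 shares 77.0% with the antisense transcript D930015M05Rik, whose median count was 0.

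The activators of the loop overlapped in level across the groups. Arntl had its lowest group mean in Fmr1 KO CBD mice, at 59.8 ± 11.7 CPM (SD, n = 6; lowest 48.2, median 57.8, highest 79.3), and its highest in Shank3 KO CBD mice, at 64.5 ± 10.7 (50.2, 62.5, 82.0). WT vehicle mice stood at 63.1 ± 9.82 CPM (51.3, 63.8, 78.7). These ranges overlapped. Clock spread least among the members, between 162.5 ± 5.91 CPM in Fmr1 KO CBD and 169.5 ± 15.7 in Shank3 KO vehicle mice (SD, n = 6), with only a 1.30-fold difference between its lowest and highest library. Npas2, the Clock paralogue of the forebrain, was the most variable, at 46.3 CPM in WT CBD replicate 1 and 160 CPM in WT CBD replicate 2, a 3.45-fold difference within 1 group.

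The Per genes, which encode repressors of the loop, also overlapped between groups. Per1 stood at 74.5 ± 8.37 CPM in WT vehicle (SD, n = 6; lowest 60.1, median 77.7, highest 81.9) and 79.0 ± 8.83 in WT CBD mice (68.0, 80.7, 90.9). It stood at 70.7 ± 9.80 CPM in Fmr1 KO vehicle (54.3, 71.0, 81.6) and 79.7 ± 9.65 in Fmr1 KO CBD mice (67.8, 80.3, 95.4). In Shank3 KO mice it stood at 71.3 ± 3.57 CPM under vehicle (67.1, 71.1, 76.0) and 80.7 ± 9.01 under CBD (66.6, 81.9, 90.3). The CBD mean lay above the vehicle mean in each genotype, within overlapping ranges. Per2 means showed the same order, at 55.8 ± 6.67 against 60.4 ± 12.04 CPM in WT, 53.1 ± 4.40 against 57.6 ± 8.02 for Fmr1 KO and 53.4 ± 3.54 against 60.6 ± 4.05 for Shank3 KO mice (vehicle against CBD; SD, n = 6). Per3 means ran from 61.6 ± 11.7 CPM in Fmr1 KO CBD to 67.8 ± 11.9 in Shank3 KO CBD mice.

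Cry1 and Cry2, the strong repressors of the loop, and the REV-ERB genes also overlapped. Cry1 means ran from 13.5 ± 1.31 CPM in Fmr1 KO vehicle to 16.4 ± 4.38 in WT CBD mice, and Cry2 means from 36.04 ± 3.14 in Shank3 KO vehicle to 42.3 ± 7.66 in Fmr1 KO CBD mice (SD, n = 6). Nr1d1 means lay between 57.2 ± 5.72 CPM in Shank3 KO vehicle and 63.2 ± 7.02 in WT CBD mice, and Nr1d2 means between 99.2 ± 9.02 in Shank3 KO CBD and 112.9 ± 19.4 in WT CBD mice. In none of the 150 pairs of groups and members did the 6 values of one group lie wholly above the 6 of the other, which they did in 0.208% of such pairs over all genes tested. The SD of log2 CPM after removal of group and sex means ran from 0.08 for Clock to 0.46 for Npas2. Its median was 0.184 over the members and 0.186 over the 9438 genes with a mean of at least 10 CPM.

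**Figure D1:**
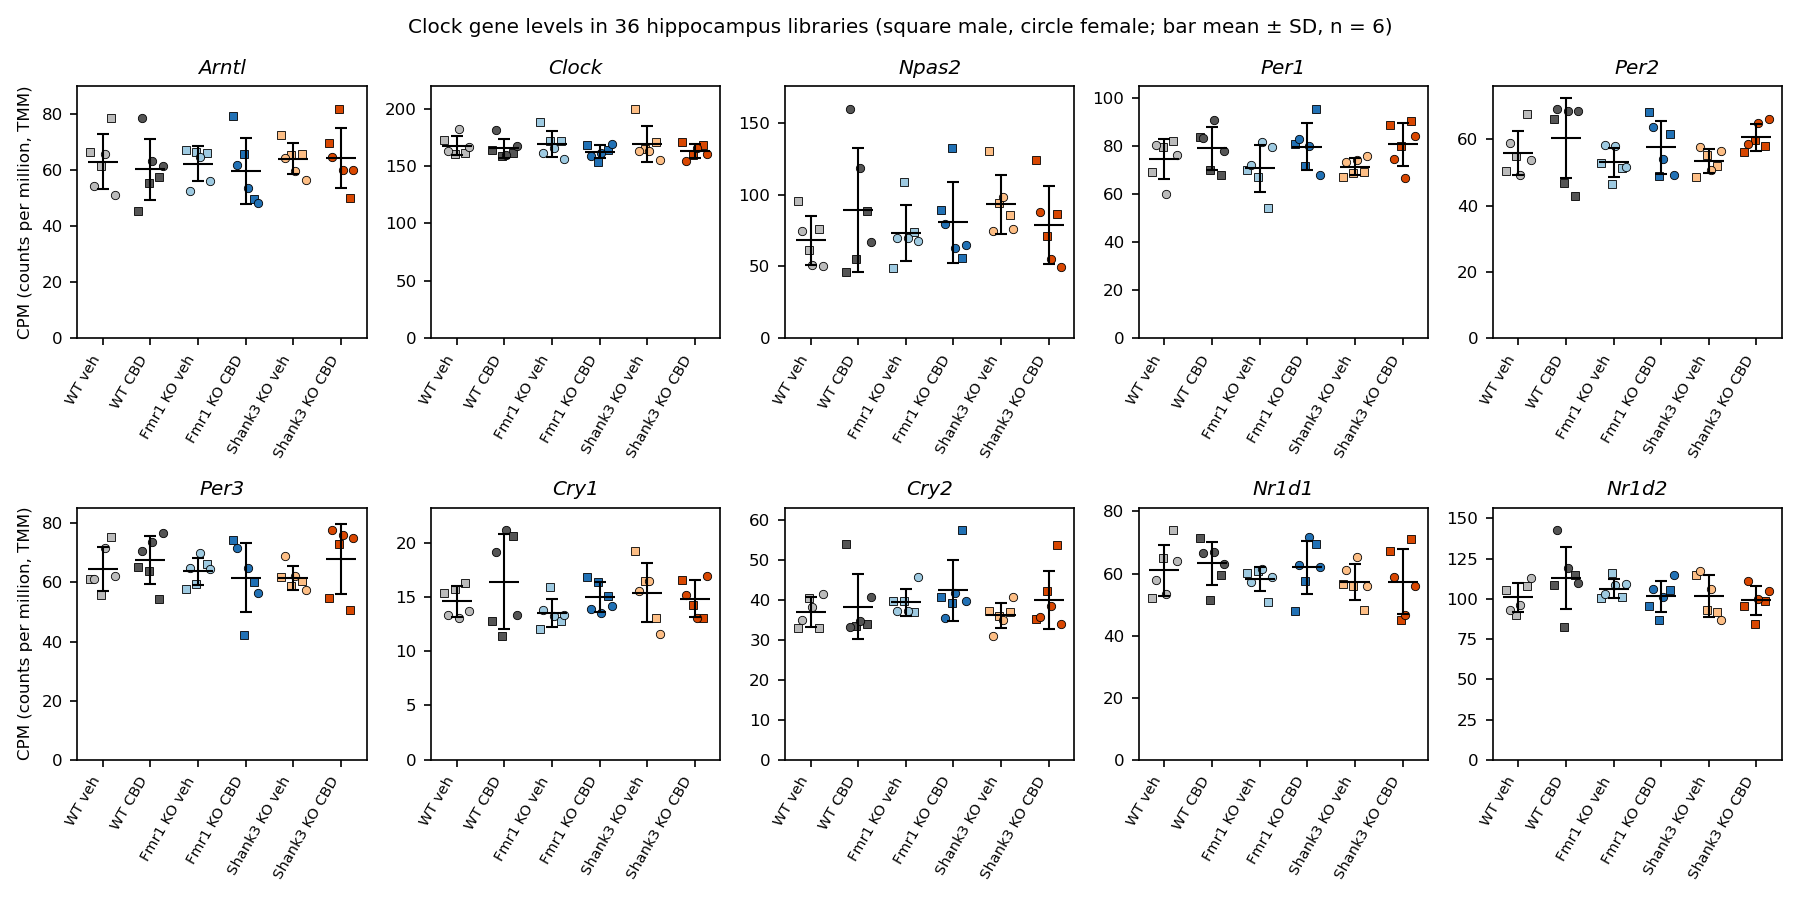
CPM (TMM-scaled, axes from 0) of each clock gene in the 36 libraries by group, squares for males and circles for females, with bars for the mean ± SD of 6 libraries. Groups overlap for every gene, and Npas2 spreads most, from 46.3 to 160 CPM, both in WT CBD mice.

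The comparison of each KO with WT asked whether the clock genes differ with loss of Fmr1 or Shank3. No member was called in Fmr1 KO against WT mice under vehicle (0 of 10 at an adjusted p under 0.05 in edgeR's quasi-likelihood test, against 0.0283% of all 21172 genes), and no unadjusted p was under 0.05. The median log2 fold change of the members was -0.02 beside 0.00 over all genes, and the 95% intervals of the members other than Npas2 all lay between -0.37 and 0.33. In Shank3 KO against WT mice under vehicle again 0 of 10 were called (0.0378% of all genes), with 0 unadjusted p under 0.05, and those intervals lay between -0.31 and 0.34. Npas2 had the largest estimate there, with 93.2 ± 20.4 CPM in Shank3 KO against 68.1 ± 17.2 in WT mice (SD, n = 6; log2 fold change 0.45, SE 0.252, edgeR adjusted p = 0.853). With scores of 6 tissue marker lists as terms in the model, that estimate was -0.08, and with the long-gene share as a term it was 0.27 (Npas2: Shank3 KO vs WT, vehicle).

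Under CBD, Nr1d2 had lower estimates in both KO lines, short of the threshold. No member was called in Fmr1 KO against WT mice (0 of 10, against 0.0331% of all genes, with 0 unadjusted p under 0.05) or in Shank3 KO against WT mice (0 of 10, against 0.0425%, with 1 unadjusted p under 0.05). Nr1d2 was that gene, with a log2 fold change of -0.18 in Shank3 KO mice (SE 0.0884, 95% interval -0.36 to -0.00479, edgeR adjusted p = 1), and it stood at -0.15 in Fmr1 KO mice (SE 0.0884, edgeR adjusted p = 0.731). Both comparisons share the WT CBD libraries, in which Nr1d2 ran from 82.5 to 142.5 CPM. Without WT CBD replicate 2 the estimates were -0.12 for Shank3 KO and -0.08 for Fmr1 KO mice.

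CBD against vehicle asked whether 7 days of treatment moved the clock. Per1 and Per2 had higher means with CBD in all 3 genotypes, but no member passed the test. For the mean effect over the genotypes 0 of 10 were called (0.0189% of all genes), with unadjusted p under 0.05 for 2 members. Per1 had a log2 fold change of 0.15 (SE 0.0547, 95% interval 0.03 to 0.26, edgeR adjusted p = 1) and Per2 one of 0.14 (SE 0.0577, interval 0.02 to 0.25, edgeR adjusted p = 1). The members' median was 0.07 beside 0.01 over all genes. Taken 1 genotype at a time, 0 of 10 members were called, 0% of all genes were called and 0 members had an unadjusted p under 0.05. The estimates for Per1 were 0.17 for Fmr1 KO (SE 0.0947) and 0.18 for Shank3 KO mice (SE 0.0948). Per2 stood at 0.18 in Shank3 KO mice (SE 0.09996) and Nr1d2 at 0.15 in WT mice (SE 0.0884).

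The effect of CBD was not shown to differ between genotypes. For Fmr1 KO minus WT and for Shank3 KO minus WT 0 of 10 members and 0% of all genes were called, with 0 members at an unadjusted p under 0.05. Npas2 had the widest estimate, -0.67 for Shank3 KO minus WT (SE 0.356, 95% interval -1.39 to 0.06, edgeR adjusted p = 0.912), and it was 0.03 with the tissue marker terms. Without WT CBD replicate 2 it was -0.40 and without WT CBD replicate 1 it was -0.83. Nr1d2 stood at -0.23 for Fmr1 KO minus WT (SE 0.125, edgeR adjusted p = 0.993). Across all 6 groups at once, 0 of 10 members differed (0.0661% of all genes called, 0 members with an unadjusted p under 0.05). Per1 had the smallest p there, 0.192.

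The sexes, which also carry the 2 doses, were compared next. In males (5 mg/kg) Per1 stood at 80.9 ± 9.66 CPM with CBD (SD, n = 9; lowest 68.0, median 80.8, highest 95.4) against 69.6 ± 7.86 with vehicle (54.3, 69.0, 81.9). Its log2 fold change was 0.22 (SE 0.0699, 95% interval 0.08 to 0.36, edgeR adjusted p = 0.709). The ranges overlapped. With the 4 libraries of low long-gene share left out it was 0.16. Cry2 in males stood at 43.2 ± 9.31 CPM with CBD (33.3, 40.7, 57.3) against 36.9 ± 2.75 with vehicle (32.9, 36.9, 40.5), a log2 fold change of 0.23 (SE 0.0951, 95% interval 0.03 to 0.42, edgeR adjusted p = 0.709). In males 0 of 10 members and 0% of all genes were called, with 2 members at an unadjusted p under 0.05, and Clock stood at -0.09 (SE 0.0439).

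The higher Cry2 mean of treated males rested on 3 libraries, 1 in each genotype. WT CBD replicate 1 held 53.8 CPM, Fmr1 KO CBD replicate 5 held 57.3 and Shank3 KO CBD replicate 6 held 53.6, while every other library of the study lay at or under 45.7. Leaving out each in turn gave log2 fold changes of 0.14, 0.16 and 0.16. Their long-gene shares were 37.1%, 40.0% and 42.8%, among the 5 lowest, and with the long-gene share as a term the estimate was 0.13. The part of that share in the result was not tested beyond these values.

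In females (50 mg/kg) Per2 stood at 62.5 ± 7.09 CPM with CBD (SD, n = 9; lowest 49.2, median 65.0, highest 69.1) against 55.0 ± 3.63 with vehicle (49.3, 56.5, 59.0). The log2 fold change was 0.18 (SE 0.0762, edgeR adjusted p = 0.984). No member was called (0 of 10, against 0.0142% of all genes), and 1 had an unadjusted p under 0.05. For females minus males 0 of 10 members and 0% of all genes were called, with 0 members at an unadjusted p under 0.05. The smallest p-values there were those of Cry2, with a difference of effect of -0.26 (SE 0.134), and Nr1d2, with 0.19 (SE 0.104), both at an edgeR adjusted p of 0.659. With the long-gene share as a term, Cry2: CBD effect, females minus males, was -0.09.

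Female against male mice under vehicle gave 0 of 10 calls (0.0331% of all genes), with 1 unadjusted p under 0.05. Arntl stood at 58.5 ± 5.57 CPM in females (SD, n = 9; lowest 51.3, median 56.8, highest 66.0) against 67.9 ± 4.94 in males (61.7, 66.5, 78.7), a log2 fold change of -0.22 (SE 0.0896, edgeR adjusted p = 1). With CBD, females stood at 61.4 ± 8.32 CPM and males at 61.7 ± 13.2. Clock under vehicle had an estimate of -0.08 (SE 0.0439).

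**Figure D2:**
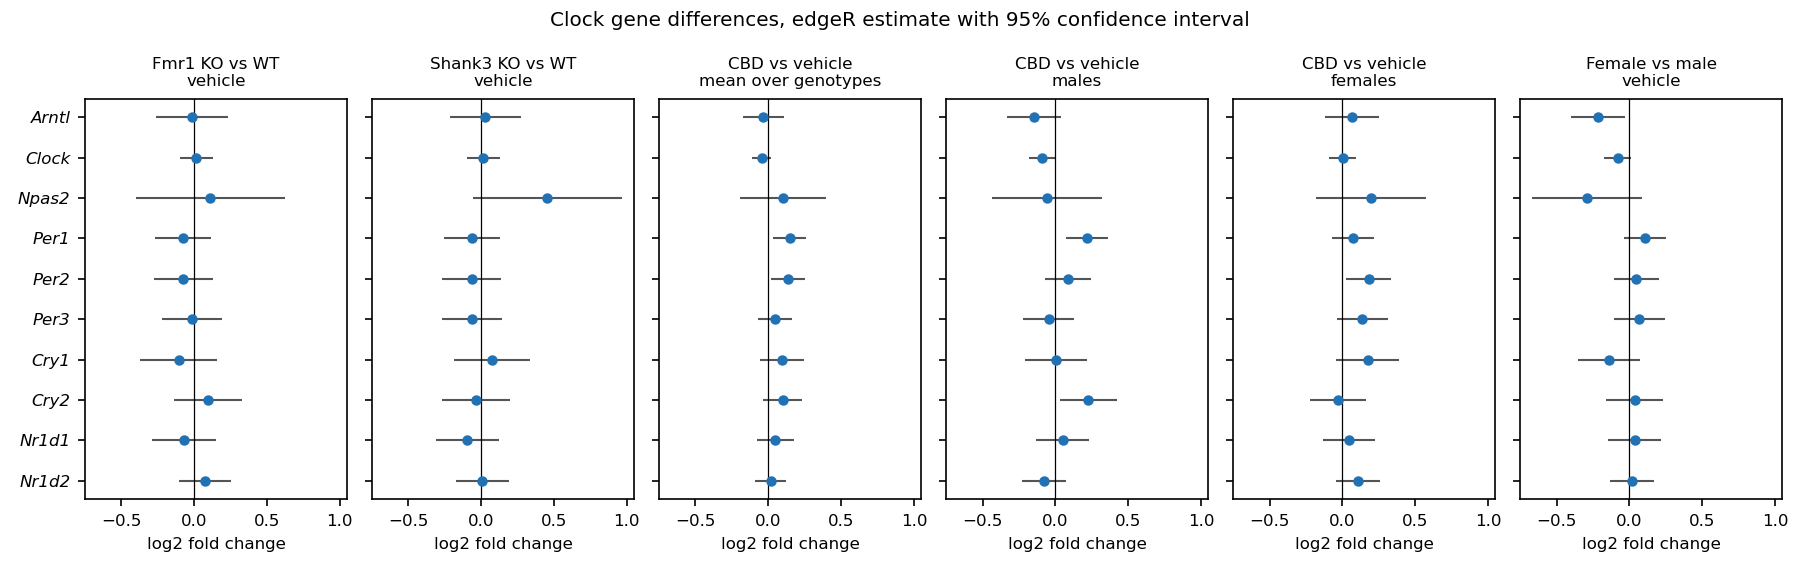
Log2 fold changes of the clock genes (points) with 95% confidence intervals (bars) in 6 comparisons, on 1 shared linear axis. Most intervals cross 0. Those that do not are Per1 and Per2 in the mean over genotypes (0.15 and 0.14), Per1 and Cry2 in males (0.22 and 0.23), Per2 in females (0.18) and Arntl between the sexes (-0.22), and no gene passes the adjusted threshold.

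DESeq2 and limma voom called 0 of 10 members in each of the 15 comparisons, as did every other setting in the comparisons it was run for. Over the 14 comparisons with a direction the members gave 140 estimates, of which 7 (5.00%) had an unadjusted p under 0.05, beside 4.13% of the estimates of all genes and 1.65% to 7.4% of genes in single comparisons. Lists of other clock genes were counted next, and they overlap. Dbp, Tef, Bhlhe41 and Nfil3 count among the cycling genes and in another list too. Of 8 measured loop partners (among them the ROR receptors and Bhlhe40 and Bhlhe41), 8 enzymes that act on clock proteins, 9 genes that cycle in many tissues and 3 PAR bZIP output factors, none was called in any comparison. Dbp, an output factor that the ARNTL pair drives directly, stood at 23.0 ± 4.06 CPM in WT vehicle and 27.9 ± 7.36 in WT CBD mice (SD, n = 6), and between 21.7 and 22.8 in the KO groups. Its log2 fold change was -0.37 in Shank3 KO against WT mice under CBD (SE 0.141, edgeR adjusted p = 1). Tef means ran from 33.3 to 37.8 CPM, Hlf from 151 to 182, Bhlhe41 from 19.7 to 21.4 and Nfil3 from 4.25 to 4.95, and Ciart did not pass the filter.

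Inputs of the Per genes were read from 2 more lists. None of 14 immediate early genes was called for the mean CBD effect, and 1 had an unadjusted p under 0.05 in edgeR's test. Of these genes 13 lay above 0, with a median log2 fold change of 0.17, beside 0.01 over all genes. The share of all genes above 0 was not counted, so such counts have no background beside them. A link of either list to the Per1 and Per2 estimates was not tested. Of 15 glucocorticoid-induced genes 14 lay above 0 (median 0.10) and 1 rose. That was Lcn2, an iron-carrier protein gene that inflammation also induces (log2 fold change 2.74, SE 0.363, edgeR adjusted p = 3.37e-05), whose group means were 0.0598 to 0.164 CPM with vehicle and 0.622 to 0.966 CPM with CBD. Lcn2 also passed in females (edgeR adjusted p = 0.00376). Neither call held under all settings. Without a sex term in the model the adjusted p of the mean effect was 0.0591, and with females fitted alone that of females was 0.0602. Under the strict filter on low counts Lcn2 was not tested and 0 genes of all were called in either comparison.

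Libraries collected at different hours would differ in clock phase, so the members were next compared library by library, as log2 CPM with group and sex means removed. Opposed phases would give a negative correlation of Arntl with the Per genes. Arntl and Per1 were close to uncorrelated (r = -0.08, permutation p = 0.673, adjusted p = 0.819 over 45 pairs; Spearman rho = -0.06; n = 36), and r was -0.08 without the 2 libraries farthest from the Arntl median. Arntl and Per2 gave r = 0.29 (permutation p = 0.207, adjusted p = 0.444; rho = 0.27), and 0.37 without those 2. Arntl and Per3 were positively correlated (r = 0.50, permutation p = 0.00787, adjusted p = 0.0443; rho = 0.54), and r was 0.62 without the 2 libraries farthest from the Arntl median. No Arntl and Per pair gave a negative correlation past the threshold. With the long-gene share removed, Arntl and Per1 stood at r = 0.46 (adjusted p = 0.056) and Arntl and Per2 at r = 0.53 (adjusted p = 0.0309). Without the 4 libraries of low long-gene share these were 0.14 (adjusted p = 0.783) and 0.55 (adjusted p = 0.0578). With the REV-ERB genes, Arntl gave r = -0.29 for Nr1d1 (permutation adjusted p = 0.34) and 0.18 for Nr1d2 (0.661). With the output factors it gave -0.39 for Dbp (permutation adjusted p = 0.167), -0.49 for Tef (0.0595) and 0.31 for Hlf (0.278). None of these passed. With the long-gene share removed they stood at 0.19, 0.30, 0.25, 0.18 and 0.29 in the order given.

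The Arntl and Per3 call was a narrow one. It passed in 15 of the 36 fits that left out 1 library each, with r from 0.40 to 0.64. Within genotypes r was 0.46 for WT, 0.39 for Fmr1 KO and 0.76 for Shank3 KO mice, 12 libraries each. With the 4 libraries of low long-gene share left out, r was 0.62 (adjusted p = 0.0281). With the long-gene share removed as a term, r was 0.33 (adjusted p = 0.207).

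Of the 45 pairs of members 9 passed the threshold, 8 of them positive. Per1 correlated with Per2 (r = 0.56, permutation p = 0.00097, adjusted p = 0.0109; rho = 0.57) and with Nr1d1 (r = 0.59, permutation p = 0.00045, adjusted p = 0.0096; rho = 0.57). All 3 are known targets of the ARNTL pair, but whether a shared drive lies behind these correlations was not tested. Per1 and Per2 also followed a score of activity-induced genes, given below (r = 0.67 and 0.66). Without the 2 libraries farthest from the Per1 median, the r of Per1 with Per2 and with Nr1d1 was 0.57 and 0.56. Both of these pairs passed in each of the 36 fits that left out 1 library. Without the 4 libraries of low long-gene share, Per1 with Per2 still passed (r = 0.52, permutation adjusted p = 0.0438). Per1 with Nr1d1 did not pass there (r = 0.54, permutation adjusted p = 0.0619). Within genotypes Per1 and Per2 gave r = 0.83 for WT, 0.50 for Fmr1 KO and -0.09 for Shank3 KO mice, a difference that was not tested.

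The other called positive pairs lay within an arm of the loop or between arms. Nr1d1 and Nr1d2, the paralogous REV-ERB genes, gave r = 0.44 (adjusted p = 0.0443; rho = 0.51), which passed in 22 of 36 fits that left out 1 library. Per2 and Per3 gave r = 0.55 (adjusted p = 0.0124), Cry1 and Nr1d2 r = 0.63 (adjusted p = 0.0096), Npas2 and Cry1 r = 0.65 (adjusted p = 0.0096), and Arntl and Npas2 r = 0.53 (adjusted p = 0.0473). The last passed in 14 of 36 such fits and fell to r = 0.32 without the 2 libraries farthest from the Arntl median, so it rests on those samples. Without the 2 farthest libraries the other 4 stood at r = 0.46, 0.55, 0.57 and 0.58 in the order given. Per2 and Per3 lost the call without WT vehicle replicate 5, and also without the 4 libraries of low long-gene share (r = 0.55, permutation adjusted p = 0.0524). Npas2 and Cry1 each followed a score of striatal markers too, given below (r = 0.63 and 0.76).

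Arntl and Cry2 formed the 1 negative pair (r = -0.58, permutation p = 0.00317, adjusted p = 0.0238; rho = -0.39, adjusted p = 0.158), with r = -0.49 without the 2 farthest libraries. The call was lost without WT CBD replicate 1, without Fmr1 KO CBD replicate 5 and without Shank3 KO CBD replicate 6, the libraries with the highest Cry2. Removing the long-gene share gave r = 0.10 (adjusted p = 0.741), and leaving out the 4 libraries of low share gave r = -0.32 (adjusted p = 0.375). Without those 4 libraries 5 of 45 pairs passed, all positive. They were Arntl with Per3, Npas2 with Cry1, Per1 with Per2, Cry1 with Nr1d2 and Nr1d1 with Nr1d2. With the long-gene share removed 8 of 45 passed, 7 of them positive, and the negative one was Npas2 with Per3 (r = -0.49, adjusted p = 0.0272).

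**Figure D3:**
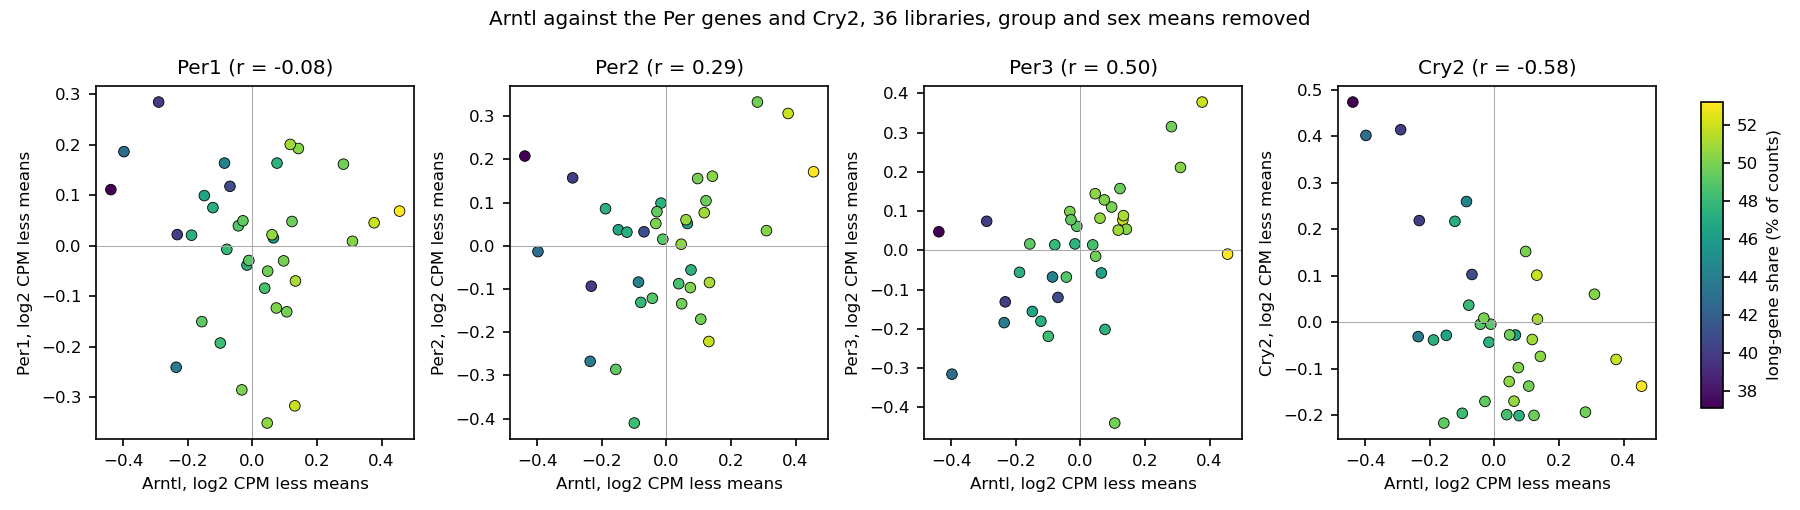
Arntl (x axis) against Per1, Per2, Per3 and Cry2 (y axes) in 36 libraries, as log2 CPM with group and sex means removed, coloured by the percent of counts in genes of at least 100000 bases. Per1 shows no slope (r = -0.08), Per3 rises with Arntl (r = 0.50), and in the Cry2 panel (r = -0.58) the 3 highest points are dark, of low long-gene share, and lie at the left.

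Some members moved with output factors (Dbp, Tef, Hlf) or loop partners (Bhlhe41) of the clock across libraries. Of 50 pairs of members with Dbp, Tef, Hlf, Bhlhe41 and Nfil3, 9 passed, all positive. Nr1d1 with Dbp gave r = 0.74 (permutation p = 0.00001, the smallest that the draws can give, adjusted p = 0.00025; rho = 0.73), and Cry2 with Tef gave r = 0.80 (adjusted p = 0.00025; rho = 0.70). Nr1d2 followed Bhlhe41 (r = 0.71, adjusted p = 0.00167) and Hlf (r = 0.65, adjusted p = 0.00263). Per1 followed Tef (r = 0.56, adjusted p = 0.008), Npas2 followed Hlf (r = 0.64, adjusted p = 0.0033), and Cry1 followed Bhlhe41 (r = 0.56, adjusted p = 0.00886). With the long-gene share removed, Nr1d1 with Dbp stood at r = 0.65 (adjusted p = 0.00167) and Cry2 with Tef at r = 0.61 (adjusted p = 0.0065). Cry2 with Dbp (r = 0.52, adjusted p = 0.0329) fell to 0.15 (adjusted p = 0.579). Clock with Bhlhe41 was the last pair (r = 0.54, adjusted p = 0.0329). Without the 2 libraries farthest from the member's median the 9 pairs stood between r = 0.30 (Cry2 with Dbp) and 0.72 (Nr1d1 with Dbp). Cry2 with Dbp lost the call without any of 7 libraries and Clock with Bhlhe41 without any of 6. The other 7 pairs passed in all 36 fits that left out 1 library. Of those 7, Per1 with Tef did not pass without the 4 libraries of low long-gene share (r = 0.47, permutation adjusted p = 0.101). Cry1 with Bhlhe41 did not pass by rank (rho = 0.45, permutation adjusted p = 0.0576).

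**Figure D4:**
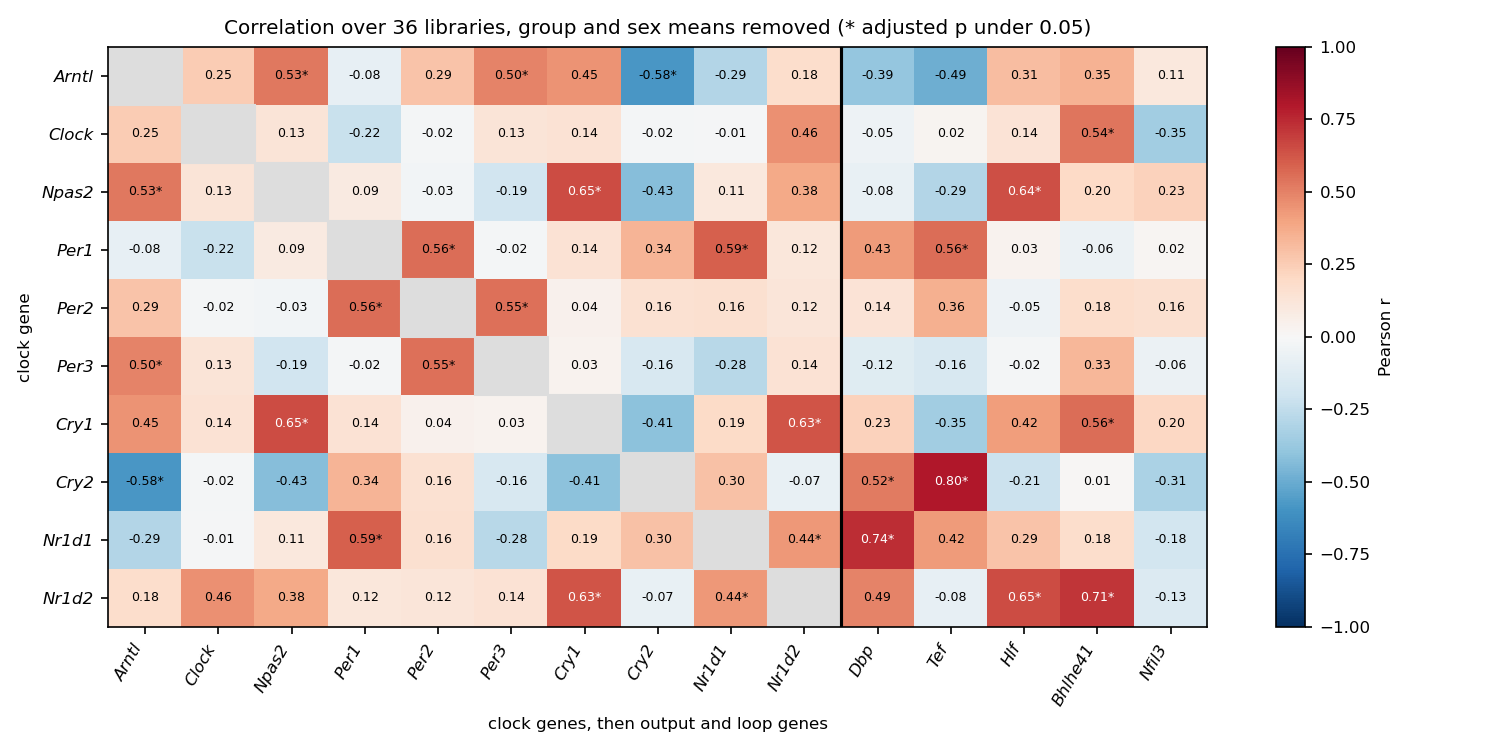
Pearson r over 36 libraries between clock genes (rows) and clock, output and loop genes (columns), group and sex means removed, red for positive and blue for negative, with a star at an adjusted p under 0.05. The stars mark 9 of 45 member pairs and 9 of 50 pairs with output and loop genes, and the Arntl and Per1 cell stands at -0.08.

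Each member was then set against tissue and cell marker scores, the activity and glucocorticoid lists, depth and the long-gene share, 160 pairs of which 21 passed. Arntl followed the long-gene share most closely (r = 0.84, permutation p = 0.00001, the smallest that the draws can give, adjusted p = 0.0008; rho = 0.82), with r from 0.82 to 0.91 within genotypes and 0.81 without the 2 farthest libraries. It fell with the astrocyte (r = -0.69, adjusted p = 0.0022), microglia (r = -0.66, adjusted p = 0.00338) and endothelium scores (r = -0.60, adjusted p = 0.0068). For Cry2 the signs were opposite, with the microglia score at r = 0.85 (adjusted p = 0.0008; rho = 0.79), the astrocyte score at r = 0.71 (adjusted p = 0.00114; rho = 0.41, adjusted p = 0.106) and the long-gene share at r = -0.74 (adjusted p = 0.00114; rho = -0.53). Cry2 also rose with the neuron (r = 0.51, permutation adjusted p = 0.0405) and endothelium scores (r = 0.48, adjusted p = 0.0441). These passed in 26 and 18 of the 36 fits that left out 1 library. Without the 2 farthest libraries the r of Cry2 with the microglia score was 0.79. The 6 measured microglia markers summed to between 132 and 207 CPM.

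Per1 and Per2 followed the immediate early score, the mean of 14 activity-induced genes. Per1 gave r = 0.67 (permutation p = 0.00003, adjusted p = 0.00114; rho = 0.67) and Per2 r = 0.66 (permutation p = 0.00136, adjusted p = 0.0155; rho = 0.64), and without the 2 farthest libraries these were 0.62 and 0.52. Within genotypes the r of Per2 was 0.87 for WT, 0.44 for Fmr1 KO and 0.04 for Shank3 KO mice, a difference that was not tested. Per2 lost the call without WT CBD replicate 6. Per3 gave r = 0.05 with that score, and the glucocorticoid score gave r = 0.33 for Per1, which did not pass.

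Npas2, Cry1 and Per3 moved with regional markers. Npas2 and Cry1 followed the striatum score (r = 0.63, adjusted p = 0.00495, and r = 0.76, adjusted p = 0.00114), Npas2 fell with the dentate score (r = -0.62, adjusted p = 0.00495), and Per3 rose with it (r = 0.68, adjusted p = 0.00114). The 10 striatum markers summed to between 245 and 1566 CPM, with 3 of them under 1 CPM in the median library. Without the 2 farthest libraries these r were 0.70 and 0.71 for striatum, and -0.54 and 0.52 for dentate. Cry1 also fell with the neuron score (r = -0.66, permutation adjusted p = 0.00763), called in all 36 fits that left out 1 library. Npas2 also fell with the microglia (r = -0.56, adjusted p = 0.0212) and astrocyte scores (r = -0.54, adjusted p = 0.0283), in 35 and 31 such fits. Nr1d2 rose with the oligodendrocyte score (r = 0.44, adjusted p = 0.0388), in 27 such fits. Per3 had its lowest level, 42.1 CPM, in Fmr1 KO CBD replicate 3, the library with the lowest dentate score, and r with that score was 0.53 to 0.74 in the 36 fits that left out 1 library, all called. The CA1 score also rose with Per2 (r = 0.61, adjusted p = 0.03; rho = 0.51), in 29 of 36 such fits and at r = 0.52 without the 2 farthest libraries. With Per3 it gave r = 0.55 (adjusted p = 0.0283; rho = 0.32), called in 33 of 36 such fits, and 0.33 without the 2 farthest, so that it rests on those samples. The part of tissue make-up in the spread of these genes was not tested beyond these values.

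**Figure D5:**
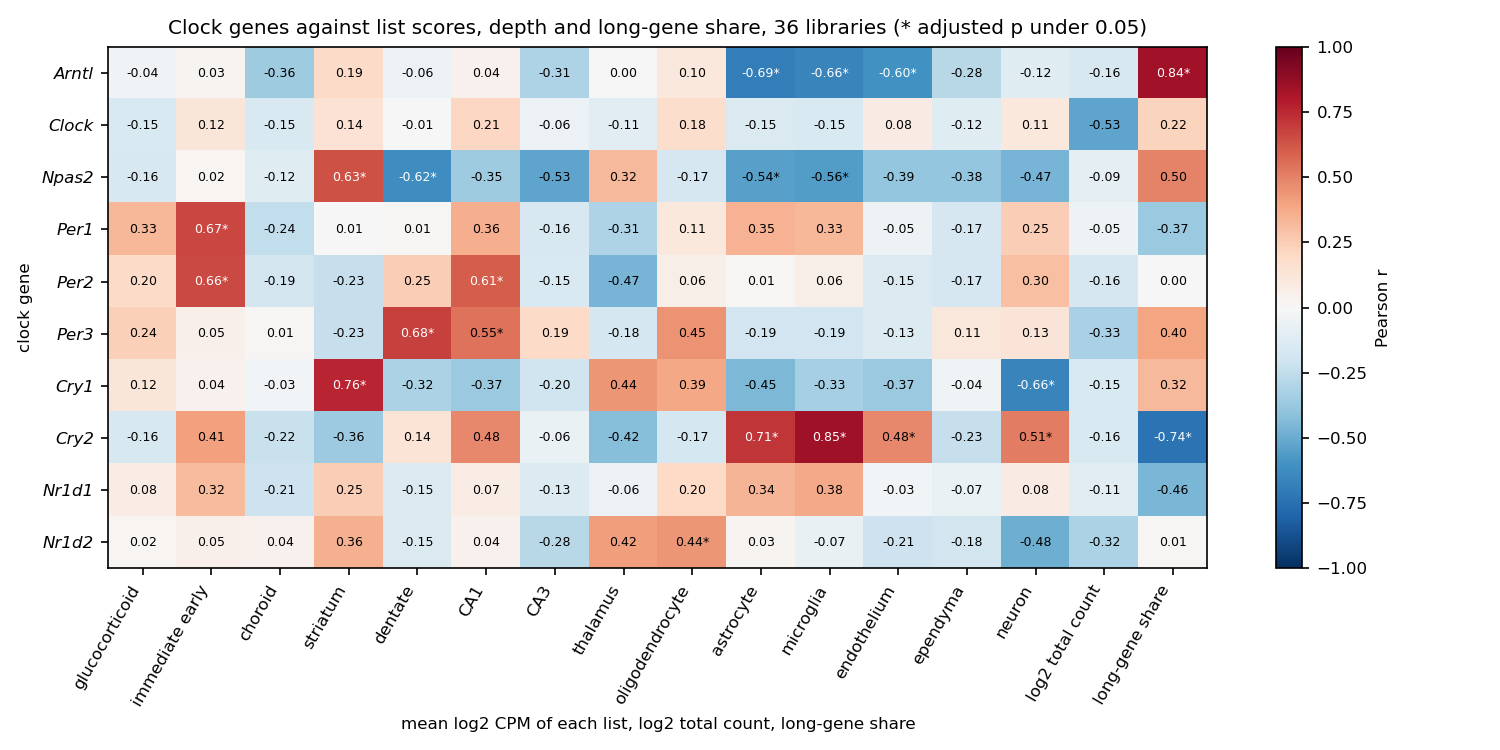
Pearson r over 36 libraries between clock genes (rows) and mean log2 CPM of each marker or input list, log2 total count and long-gene share (columns), group and sex means removed, with a star at an adjusted p under 0.05. Arntl and Cry2 have opposite signs in the long-gene share (0.84 and -0.74), astrocyte (-0.69 and 0.71) and microglia columns (-0.66 and 0.85), and Per1 and Per2 share the immediate early column (0.67 and 0.66).

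The genes most like a member by r over the 36 libraries, of 11087 with a mean of at least 5 CPM, differed by member. For Arntl they were Ptk2 (0.92), Myt1l (0.91) and Bicdl1 (0.90), and the most opposed were Gpr137 (-0.89), Tmed4 (-0.86) and Psap (-0.86). The 100 genes with the highest r to Arntl had a median length of 198595 bases and the 100 with the lowest 11321, beside 33579 over all of these genes. Arntl itself spans 106662 bases. For Per2 the closest gene was Nr4a1 (0.75), an activity-induced nuclear receptor gene, before Proser1 (0.73) and Trim17 (0.71), and the most opposed were Maoa (-0.65), Abcd3 (-0.61) and Tmem241 (-0.60). For Per1 they were Setd1b (0.74), Jade2 (0.74) and Car11 (0.72), against St8sia4 (-0.68), Ube2e3 (-0.66) and Alg6 (-0.65). For Nr1d1 the nearest genes were Kif5a (0.80), Dbp (0.74) and Tecr (0.71), against Nhsl1 (-0.72), Fbxl7 (-0.68) and Dcdc2a (-0.67).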

How the data were processed

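The authors deposited a table of whole-number counts for each gene, not normalized. Per the submitters' processing notes, tools named are FastQC, STAR 2.7.11b, featureCounts 2.0.8, DESeq2 and edgeR, and the build is GRCm39; the sources do not state annotation release, strand setting or filters. An older GENCODE annotation (GRCm38) gave symbols to 51498 of 78298 identifiers, with 99.0% of the counts, and gene spans. Of 20379 coding genes with introns, 98.1% had a deposited length within 5% of the span.

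Counts were fitted in R 4.3.3 with edgeR 4.0.16 (filterByExpr, TMM, quasi-likelihood, Benjamini-Hochberg over 21172 genes, threshold 0.05) on all 36 libraries, with 1 coefficient per group and a sex term, or per group and sex for the results by sex. CPM are TMM-scaled. Correlations use log2 CPM (prior count 2) and 100000 two-sided permutations of libraries within groups. Pairs of members (45), members with output and loop genes (50) and members with scores (160) were each adjusted as a family, in Python 3.11.15. Sex came from a deposited metadata table. Same-numbered libraries do not pair the groups. Alternatives were DESeq2 1.42.0 (its test and its size factors), limma 3.58.1 voom, 2 filters, no sex term, a replicate block, the compared groups alone and each library left out. The marker terms in edgeR, the long-gene share, the 4 libraries left out and the contrast females minus males were added after seeing the data. Scripts were tested on simulated data. The members and lists were chosen with earlier results of these data known. Named genes were the members, Dbp, Tef, Hlf, Ciart, Bhlhe41 and Nfil3, any other listed gene with an adjusted p under 0.05, and the 3 genes of highest and of lowest r to Arntl, Per1, Per2 and Nr1d1; overlapping genes and markers are named only beside the results they touch.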

Additional observations from a re-analysis of the deposited data

Results flagged for a closer look

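Of 60 sets of 6 libraries (10 members in 6 groups), 4 held a library whose gap to its nearest neighbour exceeded Dixon's 95% critical value as a share of the set's range. Chance flags about 5% of such sets. Cry2 was flagged in 3: WT CBD replicate 1 stood at 53.8 CPM against 33.3 to 40.7 in its group, Fmr1 KO CBD replicate 5 at 57.3 against 35.3 to 41.7, and Fmr1 KO vehicle replicate 6 at 45.7 against 36.9 to 39.6. Clock was flagged in Shank3 KO vehicle replicate 2, at 199.7 CPM against 155 to 171; this library had the lowest total count, 11655697.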

How the results depend on the processing

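The count of 0 called members held in all 15 comparisons under every alternative setting run for them. There were 47 such settings (36 that left out 1 library and 11 others), and not each was run for each comparison. The smallest adjusted p of a member in any of them was 0.31. Of 19 estimates with an unadjusted p under 0.1, 17 kept their direction in every setting run. Npas2 reversed with tissue marker terms, to -0.0834 (Npas2: Shank3 KO vs WT, vehicle) and to 0.0335 (Npas2: CBD effect, Shank3 KO minus WT); the cause was not tested. Arntl with Per1 reversed to 0.46 with the long-gene share removed and 0.14 with the 4 libraries of low share left out. Leaving out 1 library each, Arntl with Per1 ran from -0.161 to 0.0202 (positive without Fmr1 KO CBD replicate 5 and without Shank3 KO CBD replicate 6), with Per2 from 0.18 to 0.44, and with Per3 from 0.40 to 0.64. Arntl with Per2 passed with the long-gene share removed (0.53). Arntl with Per3 no longer passed without removal of group and sex means (0.29), with the replicate block (0.44) and with the long-gene share removed (0.33). For the block, 0 of 15 pairs of groups had every same-number correlation above 0.1 (mean 0.02), and 19 of 90 libraries compared correlated best with their own number. The block changed neither the outcome at the threshold for Arntl with Per1 or Per2 nor the count of 0 called members. Its effect on the other pairs was not read. Depth limits Cry1 most, at 218 counts in its lowest library.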
